A study of Mus musculus with 27 samples.

Results

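The genes described here are the endothelin receptors Ednra and Ednrb and 5 genes of the neural crest and the cells it gives rise to, Sox10, Pax3, Kit, Erbb3 and Foxd3. They were chosen by name, and they are 7 of the 55487 genes listed. They were read in the optic stalk (OS) of mouse embryos at embryonic day 14 (E14), from which laser capture took a dorsal piece, a ventral piece and a piece rich in retinal ganglion cell axons before RNA sequencing by Geo-seq, a method for very small pieces of tissue. Controls were 4 littermates without the Dct-Cre transgene and mutants, named Smarcc1-DCT-cKO, were 5 embryos with loxP sites in both copies of Smarcc1 (Baf155, a subunit of SWI/SNF chromatin remodelling complexes), Dct-Cre and the Z/EG reporter, all on a C57Bl6/J background. This gave 27 libraries in 6 groups of 4 or 5, of which batch A held 1 control and 3 mutant embryos and batch B held 3 control and 2 mutant embryos. Dct-Cre is active in the pigment epithelium progenitors and in the stalk, and Dct is also a gene of melanoblasts, which could therefore carry an active Cre as well.

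Endothelins are short secreted peptides that are cut from longer precursors by endothelin converting enzymes and act on G-protein-coupled receptors. Ednra binds endothelin 1 and endothelin 2 and is known from cranial neural crest, mesenchyme and vascular smooth muscle. Ednrb binds all endothelins, with endothelin 3 as its main partner in development, and is needed by melanoblasts and enteric crest cells. It is also expressed by radial glia and astrocytes. Sox10, a SoxE transcription factor, marks migrating crest, melanoblasts, Schwann cell precursors and the oligodendrocyte lineage, and Pax3 and Foxd3 are transcription factors of early crest. Pax3 stays on in melanoblasts. Kit, the receptor for stem cell factor, is used by melanoblasts, blood and mast cells, and Erbb3, the neuregulin receptor, by Schwann cell precursors.

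The total of counted reads per library ran from 10.9 M to 33.98 M (median 16.8 M), so that 1 read was worth 0.0294 to 0.0917 CPM, counts scaled to a library total of 1 M. The number of genes with a count ran from 9225 in the axon mutants to 16810 in the ventral controls. Genes were often read in some libraries of a group and not in others. A gene was tested if 3 or more libraries each held over 10 counts of it, and of the 16330 such genes 80.7% had at least 1 library with 3 counts or fewer, and the median gene had 7 such libraries. A value of 0 is therefore given here as a count and not as absence of the RNA. Smarcc1 ran from 75.9 to 289 CPM in the dorsal controls and from 2.26 to 107 CPM in the dorsal mutants, which overlapped, whereas the ventral mutants (14.7 to 64.4 CPM) lay below the ventral controls (75.7 to 198 CPM). Smarcc1 did not overlap in the axons either, at 1.86 to 44.9 CPM in mutants and 50.1 to 242 CPM in controls. Pax2, a marker of the stalk, was read in all libraries. Of 2 ganglion cell factors, Pou4f2 had 0 counts in 25 libraries. Isl1 had 0 counts in 19 libraries and more than 3 counts in 7, with a highest value of 145 CPM.

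Of the 7 genes, 5 passed the filter on counts and were tested. Ednrb had more than 10 counts in 26 libraries, Ednra in 18, Kit in 18, Sox10 in 4, Erbb3 in 3, Pax3 in 2 and Foxd3 in none, so that Pax3 and Foxd3 were not tested. Per kilobase of exonic length, the mean level over the libraries was 34.4 CPM for Ednrb, 5.18 for Ednra, 3.45 for Kit, 0.574 for Sox10, 0.378 for Erbb3 and 0.172 for Pax3. Ednrb lies on chromosome 14 (mm10, 103814625 to 103844402, minus strand, 8 exonic blocks) and Ednra on chromosome 8 (77663031 to 77724464, minus strand, 8 exonic blocks). Ednra shares 1.66% of its exonic bases with the gene 4933431K23Rik on the other strand, and Foxd3 on chromosome 4 (99656299 to 99658622, plus strand) shares 3.83% with Gm23366. The strand setting of the counting is not given in the sources used here, and reads from these shared bases cannot be assigned. Sox10 is on chromosome 15 (79154908 to 79165240, minus strand), Pax3 on chromosome 1 (78101267 to 78197134, minus strand), Kit on chromosome 5 (75574916 to 75656722, plus strand) and Erbb3 on chromosome 10 (128567523 to 128589652, minus strand).

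Ednrb was lower in the dorsal OS of every mutant than of any control. The 4 dorsal controls had 132, 97.0, 346 and 64.5 CPM, and the 5 dorsal mutants had 0, 21.7, 25.2, 47.7 and 44.7 CPM. The groups did not overlap, with means of 160 ± 127 CPM (SD, n = 4) in controls and 27.9 ± 19.4 CPM (SD, n = 5) in mutants. Among all genes tested in the dorsal libraries, 1.61% lay lower in all mutants than in all controls. The values did not overlap within batch A (132 CPM in the control against 0 to 25.2 CPM) or within batch B (64.5 to 346 CPM against 44.7 and 47.7 CPM). The exact permutation test on log2(CPM + 1), 2-sided over the 126 ways to choose 5 of 9 libraries, gave p = 0.0238 for Ednrb, where 7.66% of all genes had an exact p below 0.05. Within batches the exact p was 0.025, the smallest that 40 assignments can give. After adjustment over all genes the exact p was 0.582, and without dorsal control 3, the library with the highest value, it was 0.107 before adjustment. edgeR gave a log2 fold change of -2.35 ± 1.11 (SE) and an adjusted p of 0.918, so the difference was not called. In bulk tissue, fewer cells of a type and less RNA per cell cannot be told apart.

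**Figure D1:**
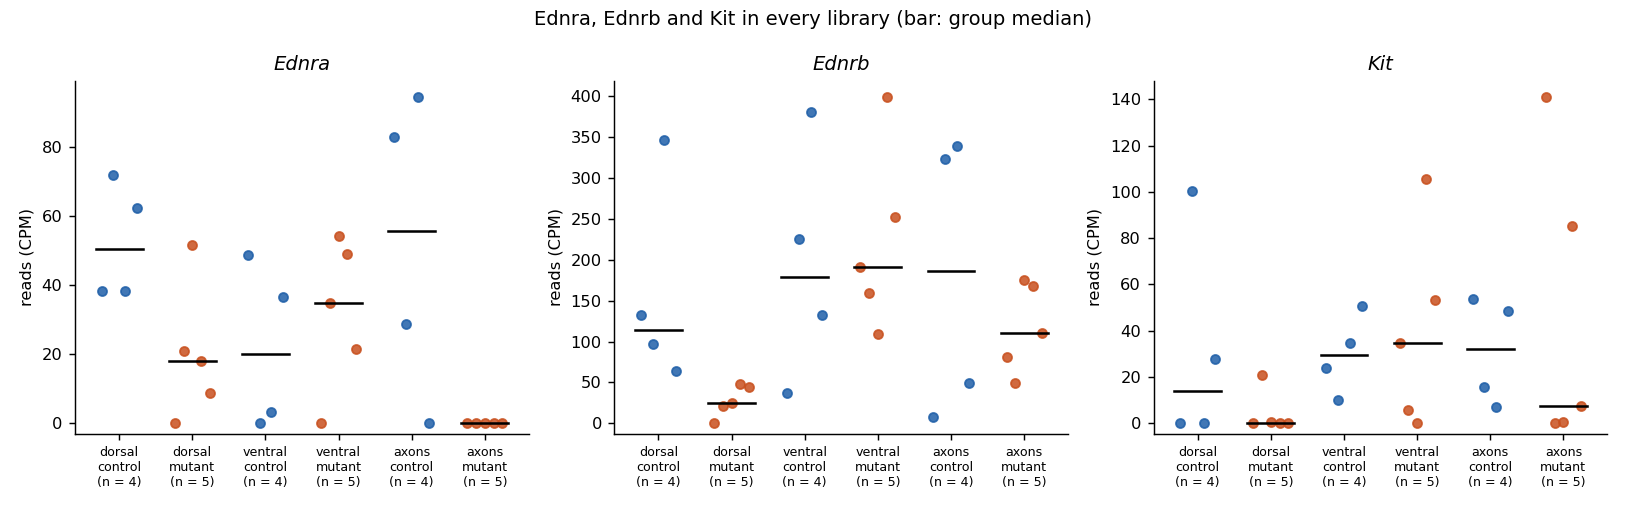
Reads of Ednra, Ednrb and Kit in CPM (vertical axis) in the 4 control (blue) and 5 mutant (orange) libraries of each region, each point being 1 library and each bar the group median. Ednrb in the dorsal mutants, at 0 to 47.7 CPM, lies below all dorsal controls, Ednra has at most 1 read in any axon mutant, and Kit spreads from 0 to 141 CPM with overlap in all regions.

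The lower Ednrb of mutants was seen in the dorsal OS and not in the ventral OS or the axons. The ventral controls had 37.2, 225, 381 and 132 CPM, and the ventral mutants had 191, 160, 109, 399 and 252 CPM. In the axons the controls had 7.23, 323, 339 and 49.1 CPM, and the mutants had 80.9, 49.3, 175, 168 and 110 CPM. Controls and mutants overlapped in both regions, with an exact p of 0.556 in the ventral OS and 0.817 in the axons. The fitted log2 fold change in the axons, 0.42 ± 1.16 (SE), turned to -0.83 without axon control 1. In mutants the dorsal libraries (0 to 47.7 CPM) did not overlap the ventral libraries (109 to 399 CPM) and lay below the axon libraries (49.3 to 175 CPM). The share of all genes without overlap between these regions was not computed. In edgeR 2007 of 16168 genes had an unadjusted p below 0.05 for dorsal against ventral in mutants, and 3701 of 15780 for dorsal against axons. In controls the 3 regions overlapped, from 64.5 to 346 CPM in the dorsal OS, 37.2 to 381 CPM in the ventral OS and 7.23 to 339 CPM in the axons. By group mean the order was ventral mutants (222 CPM), ventral controls (194), axon controls (180), dorsal controls (160), axon mutants (117) and dorsal mutants (27.9). All neighbours in this order overlapped except the axon mutants and the dorsal mutants.

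The difference between regions was also taken within each embryo. Libraries of the same genotype and number were read as 1 embryo, since the study took the 3 pieces from each. The dorsal minus ventral difference of Ednrb on the log2(CPM + 1) scale was below 0 in 5 of 5 mutants, from -7.58 to -2.07 with a mean of -3.60, and in controls it ran from -1.21 to 1.80 with a mean of -0.14. The genotypes did not overlap, and the exact permutation test over embryos gave p = 0.00794, the smallest that 126 assignments can give. Of all genes tested, 5.75% had an exact p below 0.05 for this difference, and the p of Ednrb adjusted over all of them was 0.771. The share of genes at the smallest possible p, the closer measure for Ednrb, is not given here. The dorsal minus axons difference of Ednrb was likewise below 0 in 5 of 5 mutants (mean -2.67) and above 0 in 3 of 4 controls (mean 0.68), with an exact p of 0.0397 against a background of 6.02% and an adjusted p of 0.791. The same comparisons in edgeR, where libraries of an embryo are not tied, gave -3.12 ± 1.26 (SE, adjusted p = 0.54) for dorsal against ventral and -2.54 ± 1.27 (SE, adjusted p = 0.45) for dorsal against axons. The ventral minus axons difference of Ednrb, with means of 0.82 in controls and 0.93 in mutants, had an exact p of 0.881.

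**Figure D2:**
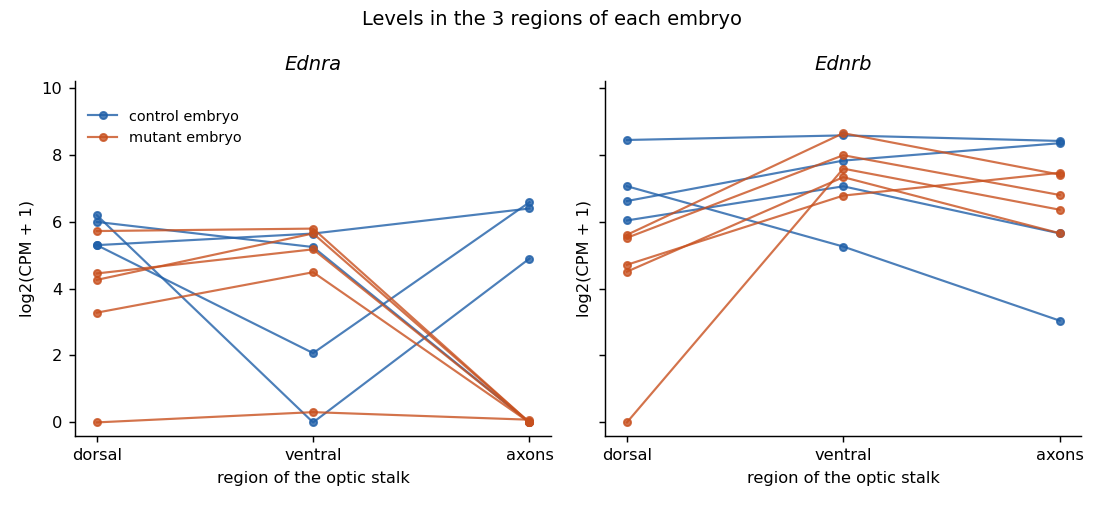
Levels of Ednra and Ednrb on the log2(CPM + 1) scale (vertical axis) in the dorsal, ventral and axon piece of each embryo (horizontal axis), with a line for each of the 4 control (blue) and 5 mutant (orange) embryos. All mutant lines of Ednrb rise from dorsal to ventral by at least 2.07, whereas the dorsal minus ventral difference of the control lines is -1.21 to 1.80, and all mutant lines of Ednra end at or near 0 in the axons.

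Ednra had at most 1 read in any axon library of the mutants. Axon controls had 83.0, 28.8, 94.5 and 0 CPM, while the axon mutants had 1 read in 1 library (0.0572 CPM) and 0 in the other four. The mean of the 4 controls, 51.6 CPM, was at least 318-fold higher than the level of 3 counts per library (mean 0.162 CPM), but axon control 4 was itself at 0 and the groups therefore overlapped. The exact permutation test gave p = 0.0476, where 4.91% of all genes had an exact p below 0.05, and adjusted over all genes it was 0.939. With assignments kept within batches the exact p was 0.075, with the smaller 1-sided p doubled it was 0.0952, and without any 1 of 8 of the 9 axon libraries it ran from 0.107 to 0.143. The exception was axon control 4, without which p was 0.0179. The adjusted p of edgeR was 0.88.

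In the other regions Ednra was read in most libraries of both genotypes. The dorsal controls had 38.3, 72.1, 38.4 and 62.6 CPM, and the dorsal mutants had 0, 20.9, 51.6, 18.1 and 8.71 CPM. Of the 5 dorsal mutants 4 lay below all controls and mutant 3 among them, which gave means of 52.8 ± 17.2 CPM (SD, n = 4) and 19.9 ± 19.6 CPM (SD, n = 5) and an exact p of 0.0635. Within batches the exact p was 0.075 and adjusted over all genes it was 0.682, and the log2 fold change in edgeR was -1.55 ± 1.65 (SE, adjusted p = 1). The exact p was 0.0286 to 0.161 when 1 library was left out, the lowest without mutant 3, the one that overlapped the controls, and 0.0476 with the smaller 1-sided p doubled. The ventral controls had 49.0, 0, 3.20 and 36.8 CPM, and the ventral mutants had 0.237, 35.0, 54.4, 49.1 and 21.4 CPM. These overlapped, with an exact p of 0.516. Mutant embryo 1 had 6 reads of Ednra in its 3 libraries together, against 481 to 2577 in the other mutants and 1522 to 3370 in the controls. In mutants the ventral libraries (mean 32.02 CPM) were at least 197-fold and the dorsal libraries (mean 19.9 CPM) at least 122-fold above the level of 3 counts in the axons (73.5-fold without dorsal mutant 3), with adjusted p of 0.138 and 0.177 in edgeR. Ednra on the dorsal minus ventral scale was below 0 in 5 of 5 mutants (mean -0.74) and above 0 in 3 of 4 controls (mean 2.46), with an exact p of 0.0238 and of 0.075 within batches, and an adjusted p of 0.828.

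Kit, the stem cell factor receptor, was either read well or hardly at all. In the dorsal controls it had 0.333, 100, 0 and 27.7 CPM, and in the dorsal mutants 0, 20.9, 0.495, 0 and 0 CPM. Ventral controls had 24.1, 10.3, 34.8 and 50.8 CPM, and ventral mutants had 34.7, 5.84, 0, 106 and 53.4 CPM. In the axons the controls had 53.5, 15.9, 6.92 and 48.6 CPM, and the mutants had 141, 0.0426, 0.68, 85.4 and 7.54 CPM. Genotypes overlapped in all 3 regions, and the exact p was 0.246 in the dorsal OS, 0.69 in the ventral OS and 0.532 in the axons. All ventral and axon controls had more than 3 counts of Kit, and 3 of 5 dorsal mutants had 0. The group means of Kit, from 4.27 ± 9.28 CPM (SD, n = 5) in the dorsal mutants to 46.9 ± 63.6 CPM (SD, n = 5) in the axon mutants, were smaller than their own SD in 4 of the 6 groups. The fitted log2 fold change of Kit was 0.40 in the ventral OS and 0.49 in the axons, and turned to -0.26 without ventral mutant 1, -0.05 without ventral mutant 4, -1.39 without axon mutant 1 and -0.92 without axon mutant 4.

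Sox10, the SoxE factor that is shared by melanoblasts, Schwann cell precursors and the oligodendrocyte lineage, was read in control libraries only. It had 5 and 332 counts in dorsal controls 1 and 2 (0.208 and 20.6 CPM), 71 and 20 counts in ventral controls 3 and 4 (4.06 and 1.24 CPM) and 381 counts in axon control 1 (21.2 CPM). The other 7 control libraries and all 15 mutant libraries had 0 counts. Each of the 4 control embryos thus had a library with more than 3 counts of Sox10 and none of the 5 mutant embryos had one. This pattern was noticed in these values, and 11 of the 16330 genes tested (0.0674%) had it, against 8 genes with the opposite pattern. Sox10 passed the filter on counts through control libraries only. Genes read in every embryo cannot show the pattern, so this share does not tell how common it is among genes with as few reads as Sox10. Over the 268.74 M reads of the mutants, 0 counts allows up to 3 counts, or 0.0112 CPM, against 3.80 CPM in the pooled controls, in counting error only. The pooled control value rests mostly on 2 libraries. Of its 809 counts, 332 were in dorsal control 2 and 381 in axon control 1. Region by region the genotypes overlapped, with 2 of 4 dorsal, 2 of 4 ventral and 3 of 4 axon controls at 0, and with an exact p of 0.167 in the dorsal OS, 0.167 in the ventral OS and 0.444 in the axons. The adjusted p of edgeR was 0.88 to 0.999.

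Erbb3, Pax3 and Foxd3 were read in few libraries of either genotype. Erbb3 had 775 counts in dorsal control 2 (48.1 CPM), 179 in ventral control 4 (11.1 CPM) and 41 in ventral mutant 3 (1.21 CPM), and at most 4 counts in any other library. Pax3 had 486 counts in axon control 1 (27.04 CPM), 17 in dorsal mutant 1 (1.56 CPM), 1 each in axon control 2 and ventral mutant 2, and 0 in the other 23. Foxd3 had 0 counts in all 27 libraries, which in each library allows up to 3 counts, or 0.0883 to 0.275 CPM. No library of either genotype had both Erbb3 and Pax3 above 3 counts, and so none had all of Sox10, Pax3 and Erbb3.

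**Figure D3:**
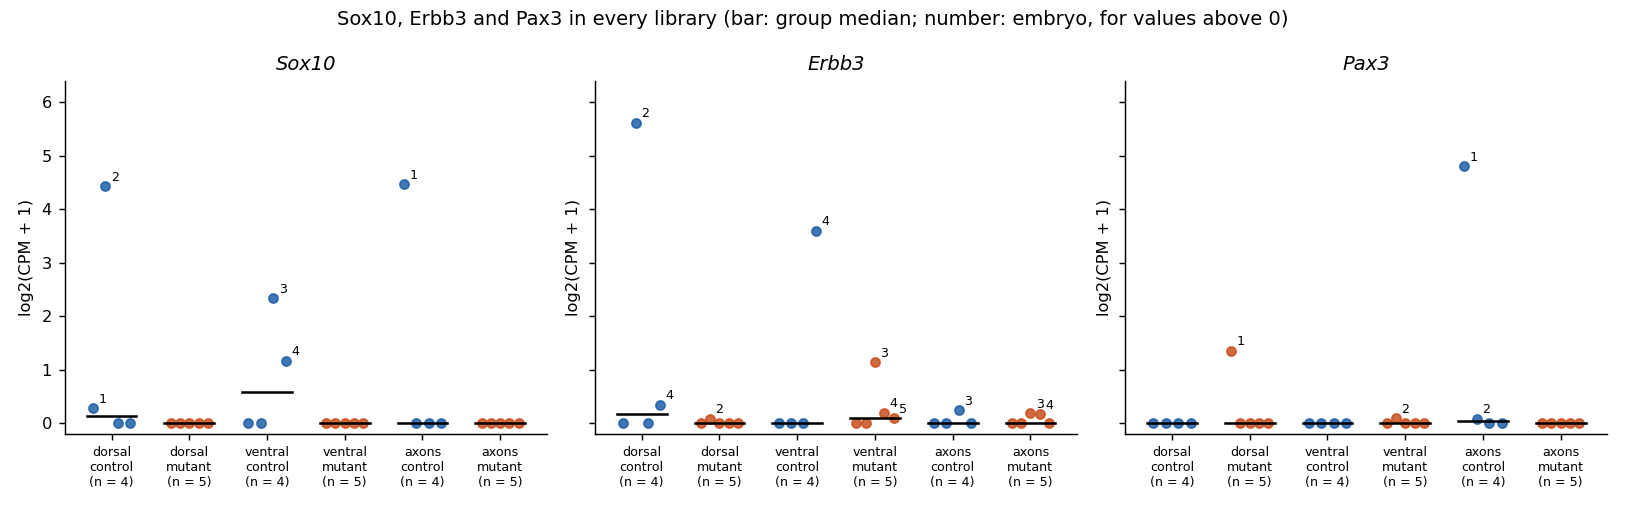
Levels of Sox10, Erbb3 and Pax3 on the log2(CPM + 1) scale (vertical axis) in the 4 control (blue) and 5 mutant (orange) libraries of each region, with the embryo number beside each value above 0 and a bar at the group median. Sox10 is above 0 in 5 control libraries and in 0 mutant libraries, while Erbb3 and Pax3 each rest on 1 to 3 libraries with more than 10 counts.

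The libraries with Sox10 differed in which other genes they held. Dorsal control 2 had Sox10 together with Erbb3, Kit at 100 CPM and Cdh19, a gene of Schwann cell precursors, at 10.1 CPM. Of the pigment genes it had Dct at 30.6 CPM and 0 counts of Tyr and Mlana. Axon control 1 had Sox10 together with Pax3, Kit at 53.5 CPM and Dct at 260 CPM, with Erbb3, Tyr, Mlana and Cdh19 at 0. Ventral control 4 had Sox10 with Erbb3, Kit at 50.8 CPM and Dct at 13.2 CPM, and ventral control 3 had it with Kit at 34.8 CPM, Dct at 46.2 CPM and no read of Erbb3. Tyr and Mlana had 0 counts in both. Dorsal control 1, with 5 counts of Sox10, was the only one of the 5 libraries with reads of Tyr (122 CPM) and Mlana (21.7 CPM), beside Dct at 304 CPM, and it had 8 counts of Kit and 0 of Erbb3 and Pax3. Olig1 and Olig2, which define the oligodendrocyte lineage, had 0 counts in all 5 libraries with Sox10. Sox10 thus came with both Erbb3 and Kit in 2 libraries of 2 embryos and with Pax3 in 1 library, and no test was made of these combinations.

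Among the ligands, Edn3, which encodes endothelin 3, was absent from the reads of all dorsal mutants. The dorsal controls had 0.665, 64.0, 16.5 and 14.7 CPM, and the 5 dorsal mutants had 0 counts each. The mean of the controls, 24.0 CPM, was at least 112-fold higher than the level of 3 counts, and without dorsal control 2 the bound was 49.5-fold. The exact p was 0.00794, the smallest possible for 4 against 5 libraries, and 0.45 adjusted over all genes, and edgeR gave an adjusted p of 0.918. In the dorsal libraries 7.66% of all genes tested had an exact p below 0.05. Dorsal Ednrb and Edn3 were thus both lower in all mutants than in all controls, as were 1.61% of all genes tested there. Whether they fell together was not tested. In the ventral OS Edn3 was above 3 counts in 3 of 4 controls and 2 of 5 mutants, and in the axons in 3 of 4 controls and 3 of 5 mutants, with overlap in both regions. The highest Edn3 of the series, 80.9 CPM, was in axon mutant 1.

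**Figure D4:**
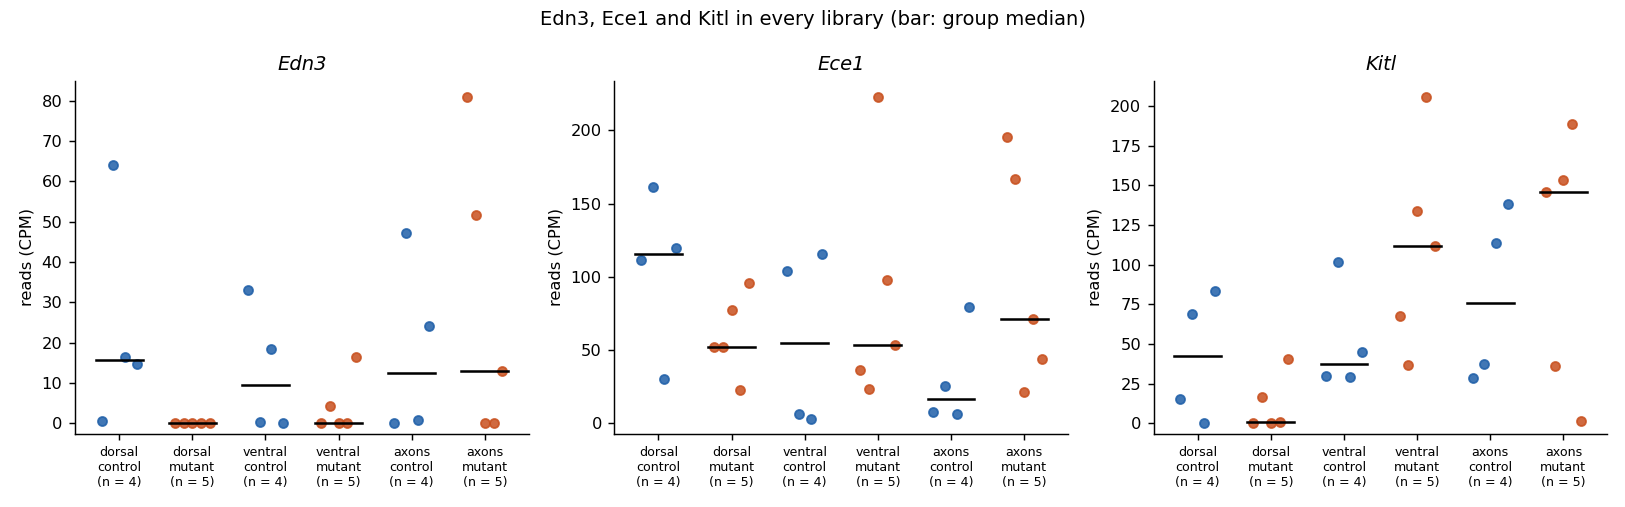
Reads of Edn3, Ece1 and Kitl in CPM (vertical axis) in the 4 control (blue) and 5 mutant (orange) libraries of each region, with a bar at the group median. Edn3 is at 0 in all 5 dorsal mutants and above 0 in all 4 dorsal controls, while Ece1 and Kitl overlap between genotypes in every region.

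The genotypes overlapped in every region for all other ligands and partners. Edn1 had more than 10 counts in dorsal control 2 (21.3 CPM), dorsal control 3 (1.48 CPM), ventral control 4 (9.88 CPM) and ventral mutant 5 (0.857 CPM), and Edn2 had 0 counts in all 27 libraries. Ece1, the converting enzyme that makes mature endothelins, was read in every library, from 2.74 to 223 CPM, with an exact p of 0.278 in the dorsal OS, 0.302 in the ventral OS and 0.103 in the axons. Kitl, which encodes stem cell factor, was read in all ventral and axon libraries and was at 0 to 40.3 CPM in the dorsal mutants and 0 to 83.5 CPM in the dorsal controls. In the ventral OS its fitted log2 fold change was 1.41 ± 0.59 (SE) with an adjusted p of 0.999, and the genotypes overlapped. Nrg1, which encodes the Erbb3 ligand neuregulin 1, had at most 1 read in the axon mutants and 3, 0, 3 and 775 counts in the axon controls, with an exact p of 0.0476 and an adjusted p of 0.88 in edgeR, and Erbb2 and Erbb4, the usual partners of Erbb3, ran from 0 to 144 CPM and 0 to 89.5 CPM. Of the 11 ligands and partners, 8 were tested in the dorsal OS, where 6 had a fold change below 0 and 2 above 0, and 0 were called. Their median log2 fold change was -0.58 there against -0.04 over all genes, 0.49 against -0.08 in the ventral OS and -0.36 against -0.29 in the axons.

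Summed markers of several cell types also differed between the genotypes in the dorsal OS. The share of comparable sums of other genes that differ so is not given here, and the median log2 fold change over all genes was -0.04. The 11 optic stalk and astrocyte progenitor markers, summed, were at 3195 to 5135 CPM in the dorsal controls and 1030 to 2058 CPM in the dorsal mutants, without overlap, and all 11 had a fold change below 0. Pax2, which defines them, had a median of 35.9 CPM in controls and 3.17 CPM in mutants. The 12 periocular mesenchyme markers summed to 1251 to 10445 CPM in dorsal controls and 126 to 469 CPM in dorsal mutants, again without overlap and with 12 of 12 lower, and Foxc1, one of their defining genes, had a median of 59.6 CPM in the controls and 0 in the mutants. The summed markers of early or migratory crest (285 to 441 CPM against 14.8 to 89.9 CPM, 5 of 6 tested lower), of Schwann cell precursors (296 to 538 CPM against 52.4 to 281 CPM, 4 of 7 lower) and of oligodendrocyte precursors (43.9 to 312 CPM against 0 to 24.3 CPM, 2 of 3 lower) did not overlap either. Each of these lists holds genes of the stalk or the mesenchyme as well (Zic1, Fabp7 and Pdgfra), and of their defining genes Foxd3, Tfap2a, Dhh and Olig1 had 0 counts in 24 to 27 libraries. Of their other defining genes, Snai2 had a dorsal median of 34.1 CPM in controls and 0 in mutants, Cdh19 of 5.06 CPM and 0, and Olig2 of 0 and 1.46 CPM. The pigment epithelium markers went the other way, from 39.5 to 5221 CPM in dorsal controls to 3632 to 13477 CPM in dorsal mutants, with 9 of 9 higher and with overlap, while Rpe65 had 0 counts in all libraries. Over all 27 libraries, Pearson's r of Ednrb was 0.68 with the summed stalk and astrocyte progenitor markers and 0.06 with those of periocular mesenchyme. It was 0.66 with early crest, 0.65 with Schwann cell precursor, 0.15 with oligodendrocyte precursor and -0.52 with pigment epithelium markers. The part of these cell types in the Ednrb difference was not tested.

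**Figure D5:**
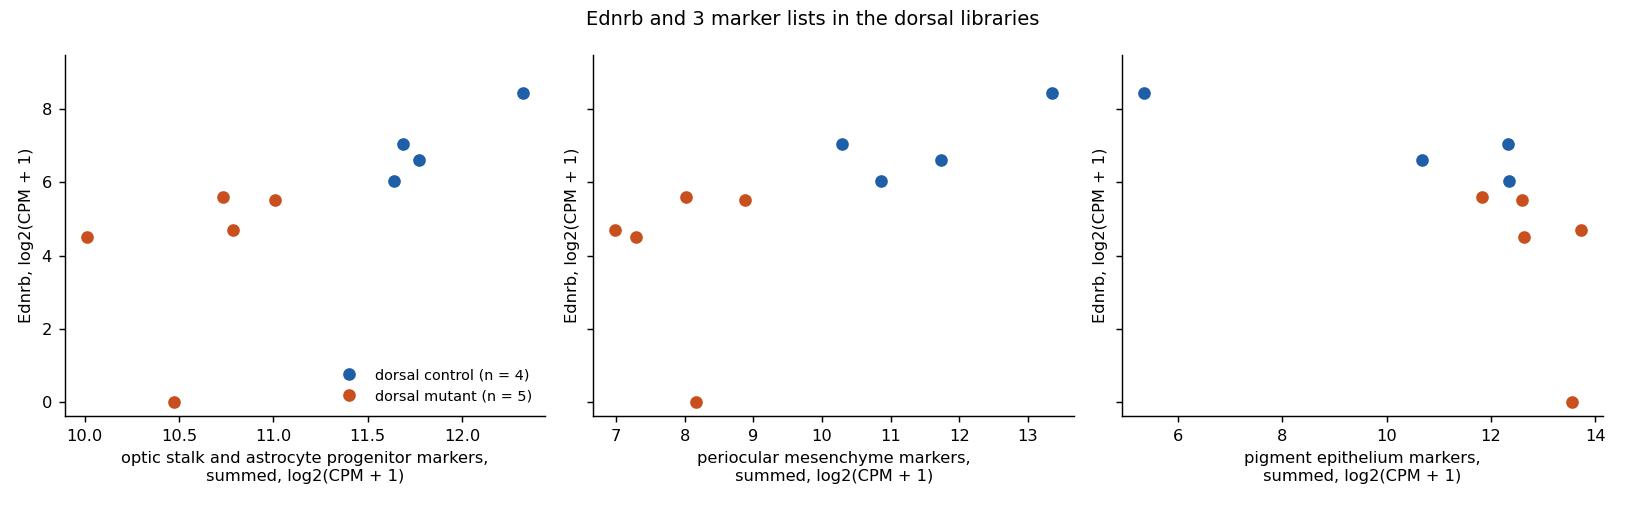
Ednrb (vertical axis, log2(CPM + 1)) against the summed level of the optic stalk and astrocyte progenitor, periocular mesenchyme and pigment epithelium markers (horizontal axes, log2(CPM + 1)) in the 4 dorsal control (blue) and 5 dorsal mutant (orange) libraries. The mutants lie below the controls in Ednrb and in the first 2 marker lists, and overlap them in the pigment epithelium markers.

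The remaining marker lists overlapped between genotypes in the dorsal OS. The 9 crest melanoblast markers other than the genes described here, most of which the pigment epithelium shares, ran from 39.5 to 5678 CPM in dorsal controls and 4315 to 14488 CPM in dorsal mutants, and 9 of 9 had a fold change above 0, while the median of Sox10 was 0.104 CPM in dorsal controls and 0 in dorsal mutants, that of Kit 13.99 CPM and 0, and that of Pax3 0 in both. Mural cell markers ran from 159 to 267 CPM and 42.7 to 275 CPM, with 5 of 9 lower, and Pdgfrb, which defines them and the mesenchyme, had a median of 64.8 CPM in controls and 1.86 CPM in mutants. Endothelial markers ran from 273 to 488 CPM and 64.3 to 575 CPM (9 of 9 lower), those of blood and mast cells from 632 to 12620 CPM and 97.9 to 3959 CPM (5 of 7 lower), and those of ganglion cells and axons from 44.9 to 725 CPM and 18.0 to 286 CPM (4 of 8 lower). In the axon region, where Ednra had at most 1 read in any mutant, mesenchyme markers overlapped (429 to 2664 CPM in controls and 681 to 2278 CPM in mutants), and so did mural markers (9.07 to 105 CPM and 0.409 to 80.5 CPM). The number of genes with a count was 10076 to 14118 in the axon controls and 9225 to 11358 in the axon mutants, and its part in the Ednra values was not tested. No marker on any list was called by edgeR in any of the 3 genotype comparisons.

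The genes with the pattern most like each receptor over the 27 libraries were named by Pearson's r of log2(CPM + 1). For Ednrb they were Zic1, a zinc finger factor of the dorsal neural tube, the crest and the eye stalk (r = 0.83), Arl4a, a small GTPase (r = 0.81), and Ntn1, which encodes the guidance cue netrin 1 (r = 0.81). In the dorsal OS the median of Zic1 was 261 CPM in controls and 26.6 CPM in mutants, and that of Ntn1 242 CPM and 68.1 CPM. For Ednra they were Fbxl7 (r = 0.81), Cog6 (r = 0.80) and Pex13 (r = 0.78), with medians of 0, 0 and 0.272 CPM in the axon mutants. For Kit they were Selenbp1 (r = 0.78), Spata6 (r = 0.73) and Ror2, a Wnt co-receptor (r = 0.70). These are the highest values among 16330 genes, over libraries that share their depth and their unread genes, and they are given as a description. Ednra and Ednrb themselves had r = 0.10.

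Across the 12 comparisons fitted with edgeR, none of the 5 tested genes was called at an adjusted p below 0.05 and an absolute log2 fold change above 0.58. Few genes of any kind were. In the mutant against control comparisons 0.0124% of the genes tested were called in the dorsal OS, 0% in the ventral OS and 0% in the axons, with 864, 515 and 531 genes at an unadjusted p below 0.05. DESeq2 called 342 genes in the ventral OS and 1233 in the axons, and limma voom 6 and 45. Between regions of the controls 0% were called for dorsal against ventral (1087 genes at an unadjusted p below 0.05, 243 called by DESeq2 and 18 by limma voom), 0.0692% for dorsal against axons and 0.0316% for ventral against axons, and the adjusted p of the members was 0.412 to 1. Between regions of the mutants, where Sox10 was at 0 and 4 genes were tested, 0% were called for dorsal against ventral (2007 at an unadjusted p below 0.05, 460 called by DESeq2 and 24 by limma voom), 0.545% for dorsal against axons and 0.443% for ventral against axons. Ednrb in mutants, dorsal against ventral, had a log2 fold change of -2.95 ± 0.91 (SE), an unadjusted p of 0.00586 and an adjusted p of 0.381. For the genotype effect between regions 0.00612% were called for dorsal against ventral, 0.0245% for dorsal against axons and 0.00612% for ventral against axons.

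DESeq2, the tool the study used, and limma voom called some of the genes. DESeq2 called Kit in the dorsal mutants against controls (adjusted p = 0.0037, with 3.3% of all genes called), Ednra and Sox10 in the axon mutants against controls (8.23% of genes called) and Ednrb in mutants for dorsal against ventral (adjusted p = 0.0374, 2.85% called). It called Ednra in mutants for dorsal against axons (9.96% called) and ventral against axons (8.55% called), and in the genotype effect for the same pairs of regions (9.09% and 8.49% called). limma voom called Ednra in mutants for dorsal against axons (adjusted p = 0.0213, 4.32% called) and ventral against axons (adjusted p = 0.00504, 3.4% called). All these Ednra calls set a group against axon mutants, which had 1 read among 5 libraries. The Sox10 call rested on 1 axon library, and Kit was at 0 in 3 of 5 dorsal mutants.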

How the data were processed

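RNA was measured in 27 libraries. The deposited values are unnormalized counts of reads for each gene. The authors aligned with STAR to mm10 and counted with HTSeq, both through Seq2Science with its defaults. Tool versions, annotation release and strand setting are not given in the sources used here. Reads carry no molecular identifiers, so intervals and floors cover counting error only. Of 55487 identifiers, 55227 matched GENCODE M21, which gave symbols, positions and exonic lengths. No 2 libraries held identical counts.

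CPM were computed from the total of each library (10.9 M to 33.98 M counts). Genes for which 3 or more libraries each held over 10 counts were tested with edgeR 4.0.16 (TMM, robust quasi-likelihood F-test, R 4.3.3), with batch as a term in genotype comparisons, and called at a Benjamini-Hochberg adjusted p below 0.05 over all genes and an absolute log2 fold change above 0.58. Exact permutation tests (numpy 2.4.6) used log2(CPM + 1), 2-sided by the size of the difference of means. Their p-values were adjusted over all genes and not over the 7 members as first planned. DESeq2 1.42.0, limma 3.58.1 and the settings given at the end were alternatives. The within-embryo test, the doubled p, the embryo count of Sox10 and the bounds without 1 library were added after the data were seen. The floor was 3 counts per library. Fits and the permutation test were tested on simulated data.

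The members, gene lists and tests were chosen with earlier results of these data known. Named genes were the members, their ligands and partners, and for members with more than 10 counts in at least 9 libraries the 3 genes of highest r. Other genes named were chosen after their values were seen or define a marker list. Groups and batches came from the labels. Control and mutant numbers name different embryos. Libraries of 1 genotype and number were taken as 1 embryo, though their deviations from the group means hardly correlated (median r = 0.037 over 27 pairs, 2 of them over 0.1). Some marker genes are not reported here.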

Additional observations from a re-analysis of the deposited data

Results flagged for a closer look

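Of the groups of values of the 7 genes, 30 had any spread and were examined for a value far from the others, and 12 values stood out. The usual chance rate of about 1 in 20 groups does not hold for these values. A group with 1 library above 0 is flagged whatever the size of that value, so the number flagged cannot be set against chance. All 12 were the highest of groups that were otherwise at or near 0. In the controls these were Sox10 in dorsal control 2 (20.6 CPM) and axon control 1 (21.2 CPM), Pax3 in axon control 1 (27.04 CPM), and Erbb3 in dorsal control 2 (48.08 CPM), ventral control 4 (11.12 CPM) and axon control 3 (0.1789 CPM, 3 reads). In the mutants they were Kit in dorsal mutant 2 (20.87 CPM), Pax3 in dorsal mutant 1 (1.56 CPM) and ventral mutant 2 (0.06147 CPM, 1 read), Erbb3 in ventral mutant 3 (1.207 CPM) and dorsal mutant 2 (0.05962 CPM, 1 read), and Ednra in axon mutant 1 (0.05723 CPM, 1 read).

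Within embryos 9 differences were tested (Ednra, Ednrb and Kit for 3 pairs of regions). The exact permutation p for a genotype effect that differs between regions was below 0.05 in 3 of them before adjustment. It was in none after adjustment over all genes. Such a p was reached by 5.75% of all genes for dorsal minus ventral and by 6.02% for dorsal minus axons. On the log2(CPM + 1) scale, mutants minus controls in the dorsal minus ventral difference was -3.455 for Ednrb (exact p = 0.00794) and -3.196 for Ednra (exact p = 0.0238). For the dorsal minus axons difference of Ednrb, which uses the same dorsal libraries, it was -3.343 (exact p = 0.0397). The edgeR fits gave adjusted p of 0.54, 1 and 0.45 for these.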

How the results depend on the processing

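No member was called by edgeR in the 12 comparisons or in any of 135 fits that left out 1 library. Of 81 fits under other settings 12 called a member. DESeq2 called 1 in the dorsal OS and 2 in the axons (mutant against control), and 1 in each region comparison of the mutants. It called 1 in the genotype effect for dorsal against axons and ventral against axons. In these comparisons it called 2.85% to 9.96% of all genes. limma voom and a fit of all 27 libraries each called 1 in mutants for dorsal against axons and ventral against axons. The fit with no filter on counts called 1 in the genotype effect for ventral against axons. limma voom called 4.32% and 3.4% of all genes in its comparisons. The shares for the fit of all 27 libraries and the fit with no filter are not given here. Of the 21 exact permutation tests by gene and region 2 had p below 0.05, which was 1 within batches and 1 to 3 when 1 library was left out. The 21 include Foxd3, which was at 0 counts throughout and could not give such a p in any region. Over all genes that passed the filter on counts, which leaves out Pax3 and Foxd3, 7.66% in the dorsal OS and 4.91% in the axons had an exact p below 0.05. Direction turned for Ednrb in the axons (main 0.42), at -0.62 without the batch term, -0.79 in batch B alone and -0.83 to 1.60 when 1 library was left out. For Kit in the axons (main 0.49) it turned to -1.17 in limma voom, with -1.39 to 0.96 when 1 library was left out, and in the ventral OS (main 0.40) the same fits gave -0.26 to 1.28. The cause was not tested.

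With the replicate number as a block, Kit was -0.79 in the ventral OS and -1.69 in the axons, and no call changed. Numbers are shared between genotypes by name only (12 pairs, r of deviations -0.0509 to 0.0279, 0 pairs over 0.1). Many genes had libraries at or under 3 counts, and single libraries then decide a value.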
